A study of Mus musculus with 6 samples.

Results

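The genes described here encode the transforming growth factor beta (TGF-beta) and bone morphogenetic protein (BMP) signalling chain: the ligands, the proteins that store or block them, the receptors, the SMAD proteins and the Id genes they switch on. They were taken by symbol from the deposited table, and all 35 of the 35 listed members were among its 16454 genes. Expression was measured by RNA sequencing of whole ovaries from CD1 mice, an outbred stock, at postnatal day 21 in generation 3. The control lineage descended from dams given the vehicle, a tocopherol-stripped corn oil, and the DEHP lineage from dams given the plasticizer DEHP, di(2-ethylhexyl) phthalate, at 20 µg/kg/day. The labels name no dosing of the sampled mice themselves. Each lineage had 3 ovaries, each sequenced on its own. The labels name neither the founding dams nor the litters, and a p-value here is set against the spread among ovaries of unknown kinship.

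TGF-beta family ligands bind a complex of type II and type I receptor kinases, and the type I receptor phosphorylates receptor SMADs, which join SMAD4 and enter the nucleus. TGF-betas and activins act mainly through SMAD2 and SMAD3, and BMPs mainly through SMAD1, SMAD5 and SMAD9. In the ovary these signals pass between the oocyte, the granulosa cells around it and the theca layer outside, and they take part in follicle growth and in the restraint of luteinization. TGF-betas are secreted in a latent form that latent TGF-beta binding proteins (LTBPs) tether to the matrix, and BMPs are held off their receptors by antagonists such as gremlin and noggin.

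Values are log2 CPM (read counts scaled to library size, CPM, on a log2 scale), from which the authors had removed a surrogate variable, an estimated nuisance direction across samples. The removed direction had its largest weights, -0.60 and 0.75, on DEHP-lineage replicates 1 and 3, and these 2 ovaries were the most alike of all pairs (r across genes 0.998, the other pairs 0.978 to 0.989). The SDs given for the deposited values are thus those left after this removal, and the median SD of the members was 0.084 there and 0.163 in the control lineage. DEHP replicate 2 lay outside the range of replicates 1 and 3 in 31 of the 35 members. The removal left replicates 1 and 3 close together, which by itself tends to place replicate 2 outside them. That count, and the place of replicate 2 in a given member below, is thus not a result about the members. The depth of the libraries is unknown, since no read counts were used here. Markers of both defining ovarian cell types were present, with all 12 oocyte markers and all 11 granulosa markers in the table. In bulk tissue, fewer cells of a type and less RNA per cell cannot be told apart.

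No member passed the test between the lineages. By limma with Benjamini-Hochberg adjustment over all genes, 0 of 35 members reached an adjusted p of 0.05, where 7 of 16454 genes (0.0425%) did, 4 higher (0.0243%) and 3 lower (0.0182%). The smallest adjusted p of a member was 0.536. The members' differences lay between -0.40 for Id4 and 0.39 for Ltbp1 on the log2 scale (DEHP lineage minus control lineage). Means were lower in the DEHP lineage for 19 members (54.3%) and higher for 16, where 53.1% of all genes had a lower mean. The median difference was -0.03 over the members and -0.01 over all genes.

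An unadjusted limma p under 0.05 was found for 5 members, 14.3% of them, against 8.78% of all genes. Ltbp1, Ltbp3 and Smad3 were on the higher side (3 of 35, where the share over all genes was 4.76%), and Acvrl1 and Id4 were on the lower side (2 of 35, against 4.02%). The 2 lineages did not overlap in 6 members (17.1%), namely these 5 and Tgfbr1, against 22.9% of all genes. Of these, 4 were on the higher side (all genes 10.8%) and 2 on the lower (12.2%). With no mean-variance trend in limma 2 members, Acvrl1 and Id4, had an unadjusted p under 0.05 (5.71%, against 8.42% of all genes in that fit). Without DEHP replicate 2 it was 9 members (25.7%), in a fit that also had no term for the removed direction and in which 14.6% of all genes had such a p, against 8.78% before. Leaving out 1 ovary moved the difference by over 1.5 times, or past 0, in 30 of the 35 members, the others being Bmp7, Acvrl1, Smad3, Id4 and Ltbp3. For 26 members the 95% interval of the difference lay within 1.5-fold in either direction, and for the other 9 it reached past that fold. Of all genes, including those with low levels, 59.9% had an interval within that fold. The difference was smaller than the range between the 3 control ovaries in 30 of the 35. The authors' deposited table gave p under 0.05 for 2 of the 35 members, Smad3 and Acvrl1, where 6.18% of all genes had such a p. In the authors' deposited table the smallest adjusted p of a member was 0.797.

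**Figure D1:**
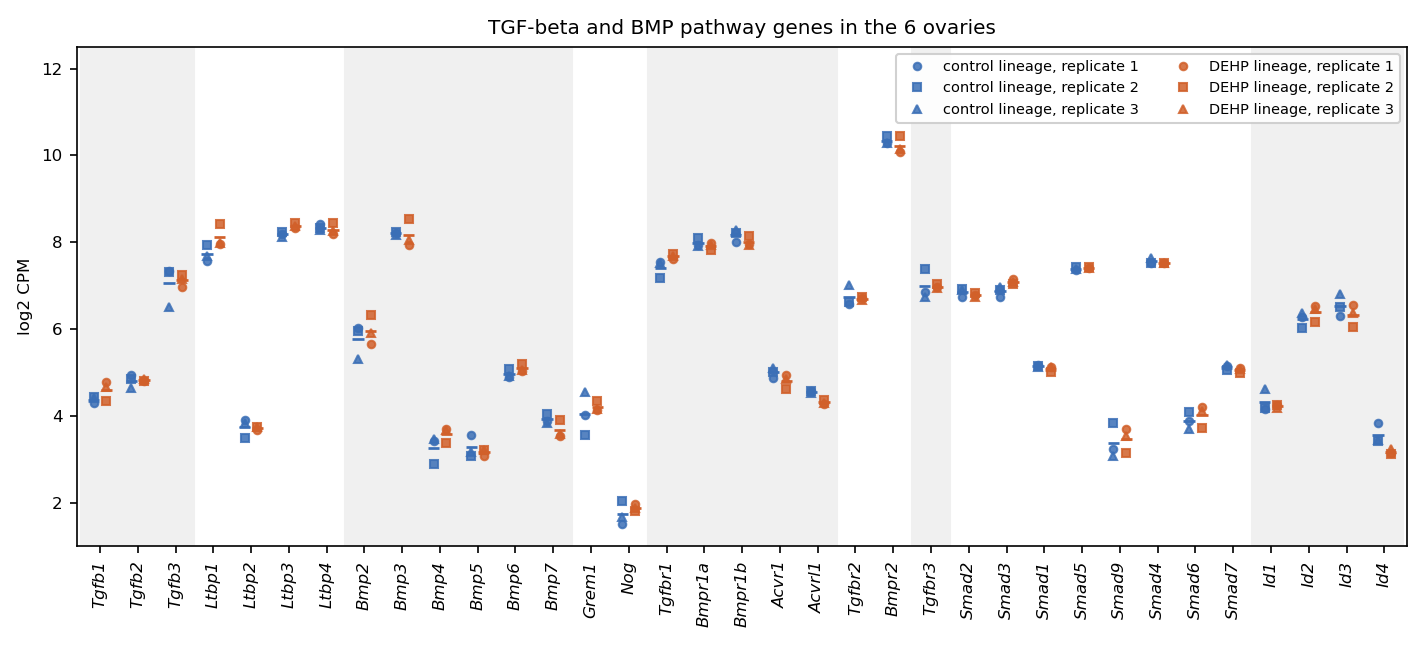
Log2 CPM of the 35 members (x axis, grouped by role, shaded bands alternate between roles) in each ovary, control lineage in blue and DEHP lineage in orange, with a short bar at each lineage mean of 3 ovaries. The points of both lineages overlap in all but 6 members, and the largest spreads within the control lineage are those of Grem1 (range 0.98), Tgfb3 (0.83) and Smad9 (0.75).

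Of the TGF-beta ligands, Tgfb3 had the highest level per length of exon, 40.8 ± 11.9 CPM per kb in the control lineage (mean ± SD, n = 3), followed by Tgfb1 at 9.53 ± 0.492 and Tgfb2 at 5.43 ± 0.60, with no overlap between neighbours in this order. Tgfb1 was at 19.5, 21.6 and 21.0 CPM in control replicates 1 to 3 and at 27.7, 20.4 and 25.5 CPM in DEHP replicates 1 to 3. DEHP replicate 2 lay among the control ovaries, and replicates 1 and 3 above them. The log2 difference of Tgfb1 was 0.23 (95% interval -0.09 to 0.56), and it was 0.142 without DEHP replicate 1 and 0.362 without DEHP replicate 2. Tgfb2 was at 4.95, 4.85 and 4.64 log2 CPM in the control ovaries and at 4.80, 4.81 and 4.86 in the DEHP lineage, all of the latter inside the control range, with a difference of 0.01 (-0.25 to 0.27). Tgfb3 had one of 0.06, with a wide interval of -0.45 to 0.57, and its 162, 160 and 91.3 CPM in the control ovaries set replicate 3 apart from the other two. Without that ovary the difference of Tgfb3 was -0.213.

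The LTBPs, which bind latent TGF-beta (LTBP2 is the exception and holds none), gave 2 of the 5 members with an unadjusted p under 0.05. Ltbp1 (chromosome 17, 75005480 to 75392512, GRCm38.p6) was at 7.58, 7.93 and 7.68 log2 CPM in control replicates 1 to 3 and at 7.95, 8.41 and 7.99 in DEHP replicates 1 to 3. All DEHP-lineage ovaries were above all control ovaries, but only just at the closest, and DEHP replicate 2 was well above the rest. The difference was 0.39 (SE 0.148, limma adjusted p 0.536), and without DEHP replicate 2 it was 0.244. That ovary also had the highest summed level of adipocyte markers, 536.0 CPM against 59.0 to 248.3 in the other 5, and of oviduct markers, 30.6 against 15.2 to 21.5. The oviduct sum was low in every ovary, and only 2 of its 6 measured markers had a mean log2 CPM of at least 1. Control replicate 1, with the lowest Ltbp1, had the next highest adipocyte sum (248.3). DEHP replicate 1, above every control ovary in Ltbp1, had the lowest (59.0). The part of these other tissues in the level of Ltbp1 was not tested.

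Ltbp3 (chromosome 19, 5740900 to 5758536) was at 8.20, 8.24 and 8.12 log2 CPM in the control ovaries and at 8.34, 8.44 and 8.37 in the DEHP-lineage ovaries. The lineages did not overlap, and the ovaries of each lineage lay near each other. The difference of 0.20 (SE 0.0745, limma adjusted p 0.536) had an unadjusted limma p of 0.0327, and of 0.0732 with no mean-variance trend. Ltbp4 (-0.05, interval -0.27 to 0.17) and Ltbp2 (-0.03, -0.38 to 0.32) had differences near 0. Per kb of exon, Ltbp3 (56.2 ± 2.33 CPM in the control lineage) and Ltbp4 (55.3 ± 2.72) overlapped each other, Ltbp1 was lower at 30.9 ± 4.04, and Ltbp2 was the lowest of the 4 at 1.99 ± 0.298.

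The promoter windows of Ltbp1 and Ltbp3 are shown because these are the stored-ligand genes with the largest differences. Each window runs from 250 bases before to 50 after a start site in RefSeq's table (GRCm38.p6, written 5′ to 3′ on the gene's strand), and capitals mark CAGAC, the SMAD box, or its reverse complement GTCTG. The other motif searched, on both strands, was GGCGCC, a GC-rich site bound by BMP-activated SMADs, which reads the same on both strands, can share 1 base with CAGAC and is in none of these 3 windows. Ltbp1 has 2 windows, at chr17:75005279-75005578 and chr17:75178531-75178830 (plus strand), and Ltbp3 has one at chr19:5740650-5740949 (plus strand).
Ltbp1 upstream start: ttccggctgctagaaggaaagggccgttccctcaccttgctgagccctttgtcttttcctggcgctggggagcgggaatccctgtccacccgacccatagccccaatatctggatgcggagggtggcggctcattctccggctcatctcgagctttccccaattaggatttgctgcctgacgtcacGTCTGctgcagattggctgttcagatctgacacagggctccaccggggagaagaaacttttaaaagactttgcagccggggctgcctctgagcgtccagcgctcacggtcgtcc
Ltbp1 downstream start: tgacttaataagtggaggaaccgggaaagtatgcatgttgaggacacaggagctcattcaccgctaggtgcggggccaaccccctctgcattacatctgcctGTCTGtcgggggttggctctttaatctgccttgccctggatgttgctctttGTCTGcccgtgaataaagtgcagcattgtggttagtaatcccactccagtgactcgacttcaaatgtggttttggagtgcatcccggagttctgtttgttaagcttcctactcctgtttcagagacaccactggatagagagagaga
Ltbp3: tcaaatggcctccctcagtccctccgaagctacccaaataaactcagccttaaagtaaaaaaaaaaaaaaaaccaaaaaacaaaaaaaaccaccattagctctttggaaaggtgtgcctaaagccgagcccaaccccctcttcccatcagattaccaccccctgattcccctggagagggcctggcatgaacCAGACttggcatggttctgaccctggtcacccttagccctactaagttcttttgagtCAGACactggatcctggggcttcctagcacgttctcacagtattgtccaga
The upstream Ltbp1 window holds 1 match to CAGAC, the downstream one 2 and the Ltbp3 window 2. Of the windows of genes in the deposited table, 47.9% hold at least 1 match, which makes such a match common.

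BMP ligands had no member with an unadjusted p under 0.05, and 3 of the 6 had higher means. Per kb of exon the order in the control lineage was Bmp3 (39.9 ± 1.06 CPM), Bmp2 (15.6 ± 3.86), Bmp6 (8.74 ± 0.624), Bmp4 (4.70 ± 0.962), Bmp7 (4.14 ± 0.32) and Bmp5 (2.55 ± 0.48). Among neighbours in this order, only Bmp4 and Bmp7 overlapped between the control ovaries. Bmp3, an atypical family member that opposes other BMPs, was at 296, 302 and 287 CPM in the control ovaries, and at 244, 369 and 266 in the DEHP-lineage ovaries. The control ovaries were close together and the DEHP-lineage ovaries lay on both sides of them, with replicate 2 the highest. The mean difference of Bmp3 was -0.03 (interval -0.38 to 0.32), and it was 0.056 when DEHP replicates 1 and 3 were averaged into 1 sample.

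Bmp2, a granulosa cell product in the mouse ovary, was at 64.9, 61.7 and 39.7 CPM in the control ovaries and at 50.7, 79.9 and 59.8 in the DEHP-lineage ovaries, so the lineages overlapped widely. DEHP replicate 2, the ovary with the highest adipocyte marker sum, was again the highest, and the part of that tissue was not tested. Bmp4, known from theca cells, had a difference of 0.33 (interval -0.14 to 0.79), with control replicate 2 (7.41 CPM) below control replicates 1 and 3 (10.7 and 11.0) and the DEHP-lineage ovaries at 12.9, 10.4 and 12.9. Without control replicate 2 the difference of Bmp4 was 0.145. Bmp7, likewise a theca product, was at 3.88, 4.05 and 3.84 log2 CPM in the control ovaries and at 3.53, 3.90 and 3.59 in the others, a difference of -0.25 (-0.60 to 0.10). Bmp6, made by oocytes and granulosa cells, differed by 0.13 (-0.10 to 0.35), and Bmp5 by -0.10 (-0.51 to 0.31).

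The BMP antagonists were among the lowest members. Noggin, encoded by Nog, was at 1.99 ± 0.381 CPM per kb and gremlin, encoded by Grem1, at 4.13 ± 1.39 in the control lineage. Grem1, which granulosa cells are known to make in response to oocyte factors, was at 16.4, 11.8 and 23.2 CPM in the control ovaries and at 17.5, 20.4 and 17.9 in the DEHP-lineage ovaries. The control ovaries thus enclosed the DEHP lineage, and the difference was 0.17 (-0.39 to 0.73). Nog had a difference of 0.16 (-0.37 to 0.68).

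**Figure D2:**
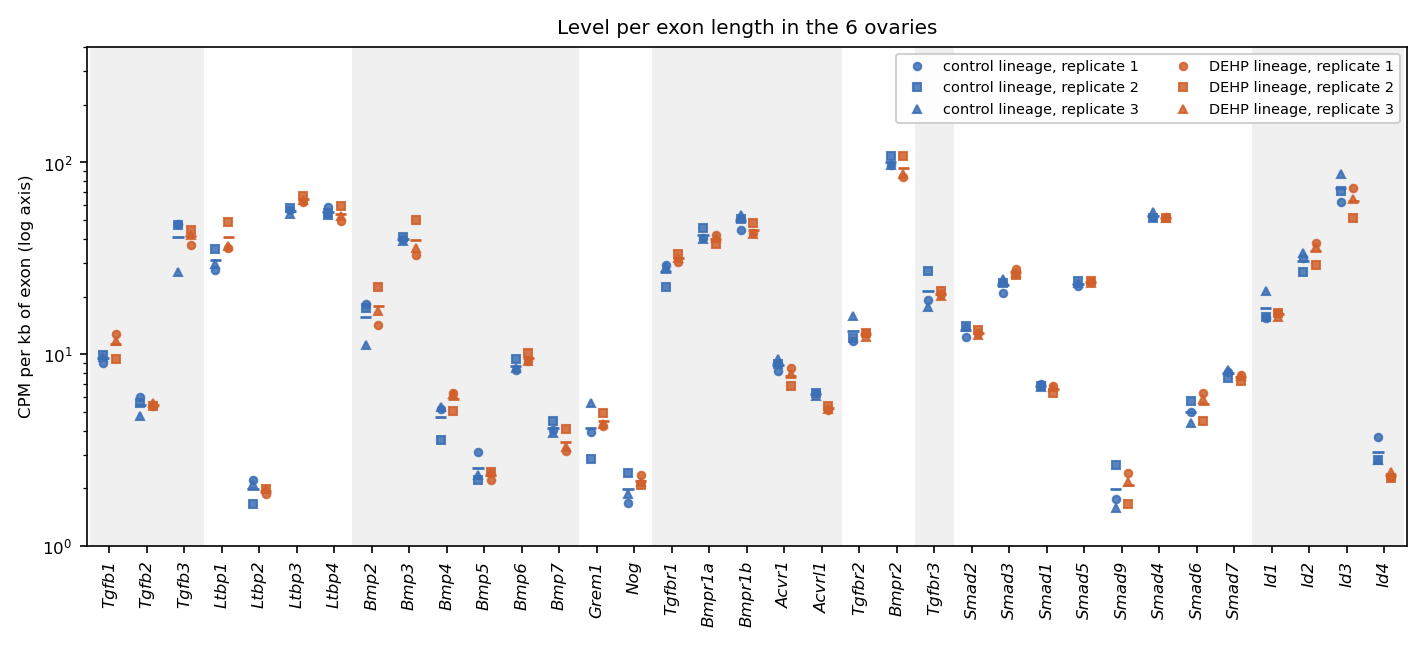
Level per length in CPM per kb of exon (y axis, log scale) for the 35 members in each of the 6 ovaries, with a bar at each lineage mean of 3. Bmpr2 is the highest member at 100.5 CPM per kb in the control lineage, and Ltbp2, Smad9 and Nog are the lowest, each at 1.99.

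Bmpr2, the type II receptor for BMPs, had the highest level per length of all members, 100.5 ± 6.38 CPM per kb in the control lineage. It was at 1252, 1391 and 1245 CPM in the control ovaries and at 1080, 1398 and 1125 CPM in the DEHP-lineage ovaries. DEHP replicate 2 was just above all controls and the other two below all of them, and the difference was -0.12 (-0.42 to 0.19). The type I BMP receptors Bmpr1b and Bmpr1a, at ranks 6 and 7 of the members, were at 49.5 ± 4.71 and 42.0 ± 2.93 CPM per kb, with overlapping ranges. Their differences were -0.15 (-0.38 to 0.09) and -0.07 (-0.27 to 0.13). Acvr1, a type I receptor for BMPs and activin, was at 8.84 ± 0.672 CPM per kb and differed by -0.20 (-0.47 to 0.07). Acvr1 was at 29.5, 32.3 and 34.4 CPM in the control ovaries and at 30.8, 24.7 and 28.5 in the DEHP lineage, where replicate 2 was the lowest, and without that ovary the difference was -0.112. Tgfbr2, the TGF-beta type II receptor, differed by -0.04 (-0.32 to 0.25) and Tgfbr3, the betaglycan co-receptor that presents TGF-beta2 and inhibin, by -0.02 (-0.39 to 0.35). Tgfbr3 was at 116, 166 and 108 CPM in the control ovaries and at 125, 131 and 122 in the DEHP lineage, so that control replicate 2 alone stood high, and without it the difference was 0.170.

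Acvrl1 (chromosome 15, 101128522 to 101145336), which encodes ALK1, the type I receptor of blood vessel endothelium for BMP9 and BMP10, was at 24.0, 23.8 and 23.0 CPM in the control ovaries and at 19.4, 20.5 and 19.7 in the DEHP-lineage ovaries. Every DEHP-lineage ovary was below every control ovary, and the spread within each lineage was small. The difference of -0.25 (SE 0.095, 95% interval -0.47 to -0.02) had a limma adjusted p of 0.541. With any single ovary left out it lay between -0.270 and -0.229. Its exons overlap Gm16031 on the other strand by 127 bases. The library kit marks strand, but no source used here gives the strand setting of the counting, so reads of the 2 genes cannot be told apart there. Endoglin, the Eng product and the co-receptor of ALK1, was at 6.49, 6.63 and 6.60 log2 CPM in the control ovaries and at 6.26, 6.42 and 6.26 in the DEHP lineage, likewise without overlap (difference -0.26, SE 0.0811, limma adjusted p 0.491). Blood endothelial markers, Eng included, had lower means in 6 of 9 measured (median difference -0.13). Their summed level was 448.7 to 483.8 CPM in the control lineage and 390.0 to 452.8 in the DEHP lineage, with overlap, and no measured one had a mean log2 CPM under 4.40. The part of vessel content in the difference of Acvrl1 was not tested.

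Tgfbr1 (chromosome 4, 47353222 to 47414926), the type I receptor ALK5 for TGF-beta, went the other way. It was at 7.55, 7.17 and 7.52 log2 CPM in the control ovaries and at 7.61, 7.74 and 7.68 in the DEHP-lineage ovaries, with no overlap but with control replicate 2 well below the other control ovaries. The difference was 0.26 (SE 0.114, limma adjusted p 0.57), and it was 0.140 without control replicate 2. That ovary also had the lowest summed macrophage markers, 37.9 CPM, against 90.2 and 104.4 in control replicates 1 and 3. The DEHP-lineage ovaries lay between, at 65.4 to 72.0 CPM, while their Tgfbr1 was above that of all control ovaries. The part of macrophages in the level of Tgfbr1 was not tested.

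Of the 8 SMAD transcripts 1, Smad3, had an unadjusted p under 0.05. Smad3 (chromosome 9, 63646766 to 63757994), the DNA-binding receptor SMAD of the TGF-beta and activin branch, was at 106, 119 and 126 CPM in the control ovaries and at 142, 132 and 135 in the DEHP-lineage ovaries. The lineages did not overlap, and control replicate 1 was the lowest. The difference was 0.23 (SE 0.086, 95% interval 0.02 to 0.43, limma adjusted p 0.537). Control replicate 1 also had the lowest summed granulosa markers, 7444.9 CPM, against 8200.6 and 8901.9 in the other control ovaries and 8798.8 to 9784.7 in the DEHP lineage. Much of that sum was Inha, at 3815 CPM in control replicate 1. The list was not low there by its median deviation from each marker's mean over the 6 ovaries. That deviation was -0.01 log2 units in control replicate 1 and -0.04 to 0.1 in the other ovaries. Of the 11 granulosa markers 6 had lower means, and their part in the level of Smad3 was not tested. Smad2, the other receptor SMAD of this branch, was at 106, 121 and 119 CPM in the control ovaries and at 110, 115 and 108 in the others, with full overlap and a difference of -0.06 (-0.24 to 0.13).

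In the BMP branch, Smad5 was the most abundant receptor SMAD at 23.4 ± 0.599 CPM per kb in the control lineage, level with Smad3 (23.0 ± 1.97) in the sense that their ranges overlapped. Smad1 was at 6.84 ± 0.135 and Smad9 at 1.99 ± 0.573. Smad5 had the narrowest interval of the 35 members, -0.13 to 0.18 around a difference of 0.03, and Smad1 differed by -0.05 (-0.25 to 0.14). Smad4, the shared partner of all receptor SMADs, was at 185, 183 and 198 CPM in the control ovaries and at 185, 184 and 183 in the DEHP lineage, a difference of -0.04 (-0.20 to 0.12). Of the inhibitory SMADs, which SMAD signalling itself induces, Smad7 differed by -0.07 (-0.28 to 0.14) and Smad6 by 0.14 (-0.27 to 0.54). Smad6 was at 14.8, 16.9 and 12.9 CPM in the control ovaries and at 18.6, 13.3 and 17.4 in the DEHP lineage, with replicate 2 among the controls and the other two above them. Smad9, at 9.44, 14.2 and 8.43 CPM against 12.9, 8.88 and 11.6, had overlapping lineages and differed by 0.08 (-0.49 to 0.64).

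**Figure D3:**
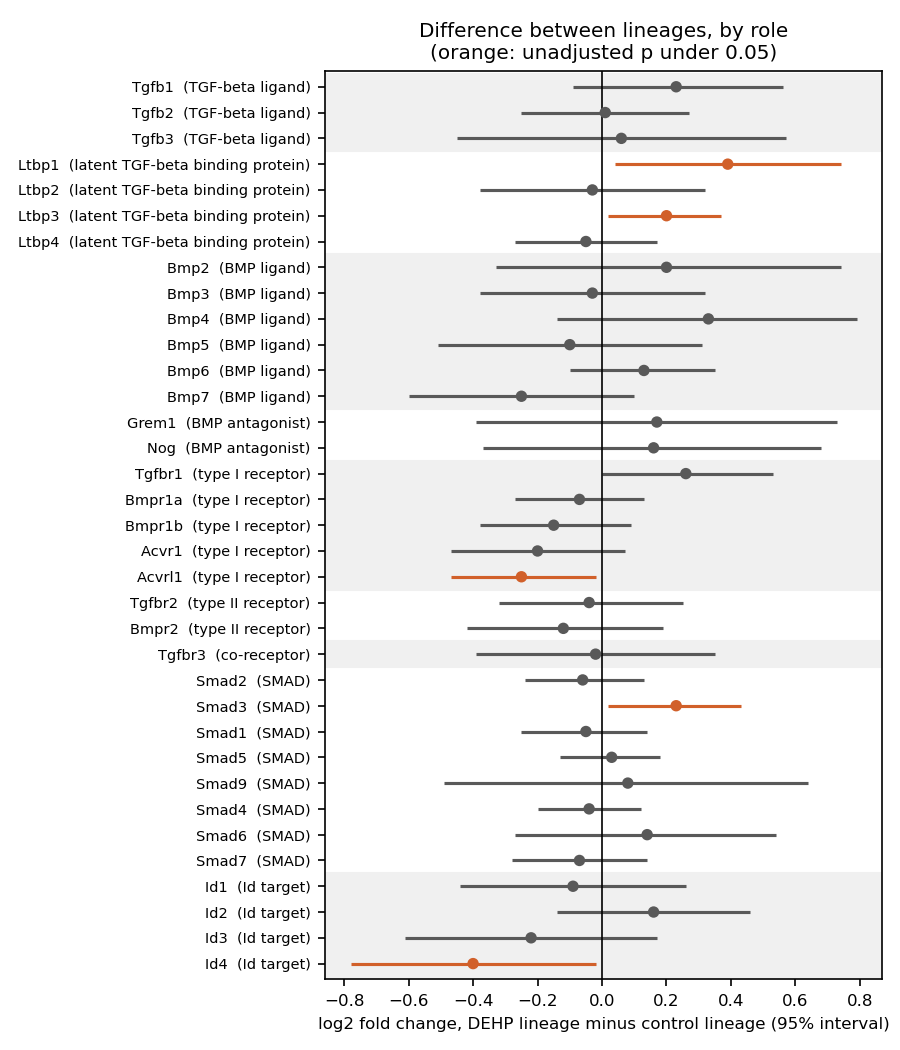
Log2 difference between lineages (x axis, DEHP lineage minus control lineage, n = 3 each) for each member with its 95% interval from limma, grouped by role, orange where the unadjusted p was under 0.05. The intervals of Ltbp1, Ltbp3, Smad3, Acvrl1 and Id4 exclude 0, none of which passed after adjustment over all genes.

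The Id genes encode inhibitors of basic helix-loop-helix transcription factors and are among the most direct transcriptional readouts of BMP receptors. They did not share a direction: 3 had lower means and 1 a higher one. Id4 (chromosome 13, 48261116 to 48266028) was at 14.3, 10.8 and 10.9 CPM in the control ovaries and at 8.79, 8.75 and 9.41 in the DEHP-lineage ovaries. No DEHP-lineage ovary reached the control range, and control replicate 1 stood above the other two. The difference of -0.40 was the lowest among the members (SE 0.161, 95% interval -0.78 to -0.02, limma adjusted p 0.558), and without control replicate 1 it was -0.269. Exons of Id4 overlap those of Gm49291 and A330033J07Rik on the other strand by 253 bases.

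Id3, the most abundant Id gene per length (73.6 ± 12.8 CPM per kb in the control lineage), was at 79.5, 90.9 and 112 CPM in the control ovaries and at 94.0, 65.6 and 82.2 in the DEHP lineage. The lineages overlapped, and DEHP replicate 2 was the lowest of the 6. Its difference was -0.22 (-0.61 to 0.17), and it was -0.083 without DEHP replicate 2 and -0.092 without control replicate 3. Id2 was at 77.9, 65.4 and 81.9 CPM in the control ovaries and at 92.2, 71.6 and 88.8 in the DEHP lineage, a difference of 0.16 (-0.14 to 0.46). Id1 was at 17.9, 18.1 and 24.7 CPM and at 19.1, 18.9 and 18.2, a difference of -0.09 (-0.44 to 0.26) that turned to 0.061 without control replicate 3.

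The promoter windows of the Id genes found in the RefSeq table, those of Id2, Id3 and Id4, are shown because BMP receptors induce all 3 genes while their differences did not share a sign. Capitals mark GGCGCC, or CAGAC and its reverse complement. The windows are chr12:25096043-25096342 (minus strand) for Id2, chr4:136143572-136143871 (plus strand) for Id3 and chr13:48260866-48261165 (plus strand) for Id4.
Id2: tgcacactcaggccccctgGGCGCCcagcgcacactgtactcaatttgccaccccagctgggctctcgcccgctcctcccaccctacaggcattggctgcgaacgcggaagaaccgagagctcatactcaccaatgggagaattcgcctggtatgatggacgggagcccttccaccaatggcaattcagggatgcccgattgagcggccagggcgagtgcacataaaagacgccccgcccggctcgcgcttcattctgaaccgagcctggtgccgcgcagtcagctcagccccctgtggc
Id3: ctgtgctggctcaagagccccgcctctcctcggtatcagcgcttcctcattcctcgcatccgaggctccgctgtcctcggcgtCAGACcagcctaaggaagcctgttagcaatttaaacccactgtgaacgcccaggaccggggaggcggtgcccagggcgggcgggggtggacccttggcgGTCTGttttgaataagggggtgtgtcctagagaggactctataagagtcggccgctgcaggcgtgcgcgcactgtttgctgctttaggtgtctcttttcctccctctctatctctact
Id4: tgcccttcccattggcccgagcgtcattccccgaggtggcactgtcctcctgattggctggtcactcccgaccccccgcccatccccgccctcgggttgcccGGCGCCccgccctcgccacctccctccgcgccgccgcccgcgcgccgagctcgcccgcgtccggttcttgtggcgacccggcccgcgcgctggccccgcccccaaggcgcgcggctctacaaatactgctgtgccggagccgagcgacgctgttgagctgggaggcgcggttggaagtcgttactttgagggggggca
Id2 and Id4, whose differences had opposite signs, each hold 1 GGCGCC and no CAGAC, and Id3 holds 2 CAGAC matches and no GGCGCC. Promoter windows were found for 24 of the 35 members, 32 windows in all. GGCGCC was in 11 of these 32 (34.4%), against 19.2% of the windows of genes in the deposited table, and CAGAC was in 14 (43.8%), against 47.9%. Several members have more than 1 window, and windows of one gene can overlap, so these shares are descriptions only.

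No marker of any cell type passed the adjusted p of 0.05, and the summed levels of the marker lists are given here as descriptions beside the members. Smooth muscle and pericyte markers had lower means in 10 of 11, with summed levels of 2199.3 to 2465.3 CPM in the control lineage and 1793.1 to 2034.2 in the DEHP lineage. Theca and interstitial markers had lower means in 9 of 10, at 3102.6 to 3813.4 and 2924.0 to 3026.4 CPM. Lymphatic endothelial markers had higher means in all 5 measured, at 117.7 to 126.4 and 157.6 to 163.3 CPM. None of these 3 lists overlapped between lineages in its sum, while all the other marker lists did. Of all single genes, 22.9% did not overlap. No measured marker was listed at 0 CPM, the lowest mean log2 CPM being that of Insl3 (-0.85). Oocyte markers had lower means in 11 of 12, with overlapping sums of 1154.0 to 1499.7 and 1067.8 to 1216.5 CPM. Stromal fibroblast, surface epithelium and macrophage markers had lower means in 3, 4 and 4 of 8 each, and erythroid markers in none of 5, at 65.6 to 126.6 and 115.3 to 290.0 CPM. The part of cell composition in the differences of Ltbp1, Ltbp3, Smad3, Acvrl1, Id4 and Tgfbr1 was not tested.

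The remaining genes of the pathway were taken in 5 lists of 103 genes, 84 of which were in the table, and 0 of these 84 passed the adjusted p. An unadjusted limma p under 0.05 was found for 9 on the higher and 10 on the lower side, 22.6% together against 8.78% of all genes. The median difference over the 84 was 0.00 (all genes -0.01). These lists hold genes that earlier results on these data had already named, so the share is a description and not independent of them.

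Other ligands had 5 of 11 measured genes with an unadjusted limma p under 0.05 (45.5%, against 8.78% of all genes). The oocyte factors Bmp15 and Gdf9 had differences of -0.35 (SE 0.0689, limma adjusted p 0.296) and -0.31 (SE 0.109, 0.502), and both are among the oocyte markers summed above. Bmp15 was at 7.24, 7.12 and 7.23 log2 CPM in the control ovaries and at 6.84, 6.86 and 6.86 in the DEHP lineage, so that its lineages lay apart by more than either's range. Gdf10, also called Bmp3b, was lower too, at 4.70, 4.88 and 5.07 against 4.53, 3.86 and 4.32 log2 CPM. Lefty2, an inhibitor of nodal signalling, was near the bottom of the table, at -1.79, -1.10 and -3.04 log2 CPM in the control ovaries and at 0.18, -0.89 and 0.06 in the others. The fifth, Amh, a granulosa hormone that restrains follicle recruitment, was named after its values were seen. It was at 8.62, 8.46 and 8.68 against 8.43, 8.19 and 8.39 log2 CPM.

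Other receptors and co-receptors had 3 of 11 with an unadjusted limma p under 0.05 (27.3%, against 8.78% of all genes). These were Eng, given above with Acvrl1, Lrrc32 (GARP, which displays latent TGF-beta on cell surfaces) at -0.24, and Tdgf1, the nodal co-receptor, at 0.56. Acvr1b, the activin type I receptor ALK4, was at -0.18 (-0.44 to 0.09). Antagonists and modulators had 5 of 23 (21.7%, against the same 8.78%). Chordin-like genes were on the higher side, Chrdl1 at 0.41 (SE 0.153, limma adjusted p 0.529) and Chrdl2 at 0.93 (SE 0.259, 0.455). Chrdl2 had a low level, at 0.99, 1.32 and 1.20 CPM in the control ovaries and at 2.28, 2.24 and 2.14 in the DEHP lineage. Bmper, a BMP-binding protein named after its values were seen, was at 4.33, 4.34 and 3.49 log2 CPM in the control ovaries and at 4.66, 4.47 and 4.74 in the DEHP lineage. Pcsk6, a convertase that cleaves family precursors, was at 0.33 (SE 0.086, limma adjusted p 0.426). Fbn1, the fibrillin that anchors LTBPs in microfibrils, was at 8.41, 8.56 and 8.62 log2 CPM in the control ovaries and at 8.07, 8.30 and 8.07 in the DEHP lineage. Its difference of -0.39 (SE 0.0996, limma adjusted p 0.42) thus had the opposite sign to those of Ltbp1 and Ltbp3.

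Intracellular regulators had 2 of 21 (9.52%), near the share of 8.78% over all genes. These were Bambi, a pseudoreceptor that blocks type I receptors, at -0.36 (SE 0.107, limma adjusted p 0.48), and Tgif1, a corepressor of SMAD2 and SMAD3, at 0.25 (SE 0.0776, 0.491). Fkbp1a and Tab1 came next by p, at -0.12 and 0.13. Textbook targets had 4 of 18 (22.2%, against 8.78% of all genes). The cell cycle inhibitor gene Cdkn1a was at 0.83 (SE 0.258) and Junb at 0.42 (SE 0.159). The contractile gene Acta2 was at -0.27 (SE 0.0941) and the collagen gene Col3a1 at -0.31 (SE 0.122). The targets thus had 2 genes on each side, Acta2 is also a smooth muscle marker, and the smallest limma adjusted p among them was 0.491.

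**Figure D4:**
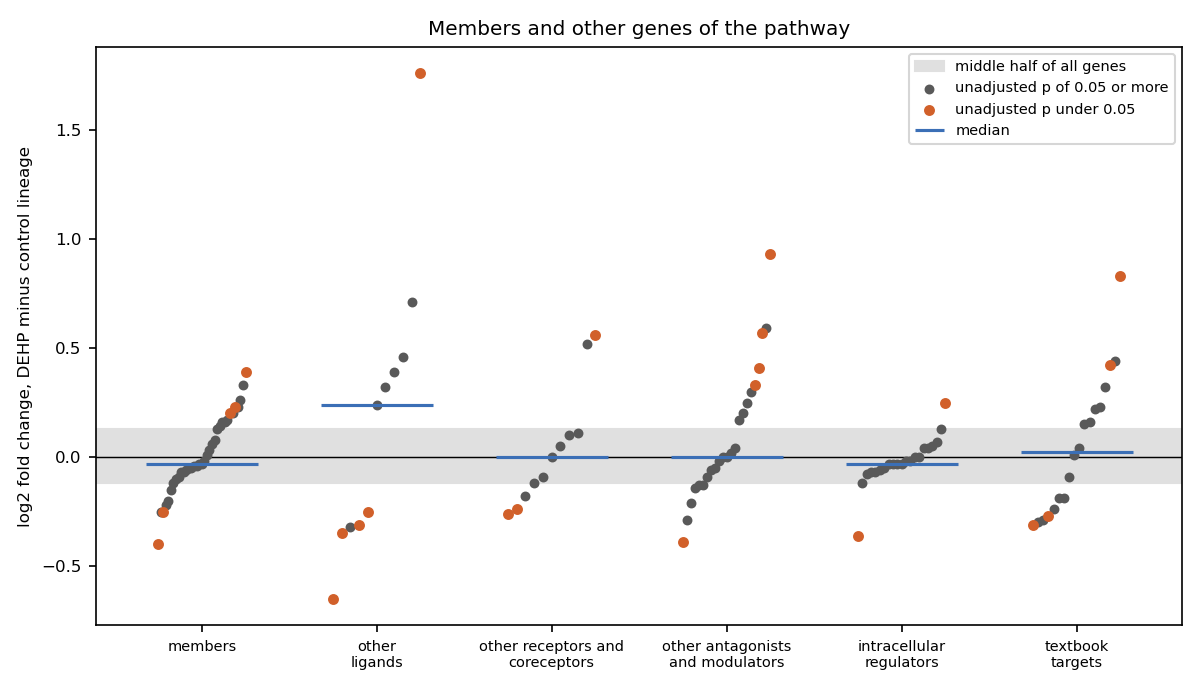
Log2 difference between lineages (y axis) for the 35 members and for the measured genes of 5 lists of other pathway genes, each point 1 gene sorted by value, with the median as a blue bar, orange where the unadjusted limma p was under 0.05, and the middle 50% of all genes (-0.12 to 0.13) in grey. The members span -0.40 to 0.39 around a median of -0.03, and the widest spread is that of the other ligands, from -0.65 to 1.76.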

How the data were processed

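Per the labels' protocols, total RNA of whole ovaries was made into strand-marking mRNA libraries and read from one end. The submitters' processing notes name build GRCm38.p6 and the tools STAR 2.5.3a, edgeR 3.20.5, featureCounts, Trimmomatic 0.36 and Subread 1.5.2, among others. No source used here gives their settings, the prior count or the filter on low genes. The authors deposited log2 CPM per ovary, with a surrogate variable removed per the file's name, and their own log2 fold changes, p-values and adjusted p-values. Deviations from the lineage means filled 3 of 4 possible directions.

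All genes were fitted with limma 3.58.1 in R 4.3.3 with a mean-variance trend, two-sided, on the deposited values. The missing direction entered as a covariate, which left 3 residual degrees of freedom. P-values were adjusted by Benjamini-Hochberg over 16454 genes, with a threshold of 0.05. The fit was tested on simulated data. Members and lists were chosen with earlier results of these data known. All members are named, and of each other list the 4 genes with the smallest p. Levels per kb used the exon length of GENCODE M21 basic coding transcripts, of the same build. Positions and promoters are RefSeq's. At most 4.13% of a member's 31-base words occurred in another gene, so none was a near-identical copy. Exons of 10 members overlap a gene on the other strand.

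Same-numbered ovaries did not deviate together in the values left after the removal (correlations across genes of -0.327, -0.003 and -0.198). Alternatives were the degrees of freedom, a replicate block, 2 scalings, a filter, a pseudocount, no trend, DEHP replicates 1 and 3 averaged, and each ovary left out, in fits without that covariate.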

Additional observations from a re-analysis of the deposited data

How the results depend on the processing

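No member passed an adjusted p of 0.05 under any of the 14 alternatives, and 0 of 35 were called in each. Over all genes, the 7 calls became 20 with 4 residual degrees of freedom, 3 with quantile normalization, 3 with median centring and 1 with no mean-variance trend, and between 2 (without control replicate 3) and 35 (without DEHP replicate 2) with 1 ovary left out, with 4 without control replicate 2. In the deposited values no control ovary correlated best with the DEHP-lineage ovary of its number. These values lack the removed direction, which weighs most on DEHP replicates 1 and 3, so they cannot show whether the ovaries were paired. The replicate block, entered in place of the removed direction, gave 6 calls over all genes. In that fit 6 members (17.1%) had an unadjusted limma p under 0.05, against 10.8% of all genes. That number of members was 5 in the reported fit, 2 with no mean-variance trend (Acvrl1 and Id4), and between 5 and 9 with 1 ovary left out, the 9 without DEHP replicate 2. Those fits had no term for the removed direction, and in them 1129 to 2865 of all genes had such a p, against 1445 in the reported fit.

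The sign of the difference was the same in all 14 alternatives for 23 members. The other 12 had differences of at most 0.20 in size. With quantile normalization Tgfbr3 turned to 0.007, and with DEHP replicates 1 and 3 averaged Bmp3 turned to 0.056 and Smad9 to -0.001. With 1 ovary left out, Tgfb2 from -0.078 to 0.081, Tgfb3 from -0.213 to 0.202, Tgfbr2 from -0.117 to 0.099, Tgfbr3 from -0.142 to 0.170, Bmp2 from -0.022 to 0.351, Bmp3 from -0.210 to 0.087, Bmp5 from -0.196 to 0.050, Smad9 from -0.076 to 0.299, Id1 from -0.172 to 0.061, Grem1 from -0.072 to 0.418, Ltbp2 from -0.154 to 0.057 and Ltbp4 from -0.121 to 0.011 ranged across 0. The cause of these turns was not tested. The depth of the libraries is unknown, so what it limits could not be computed, and 3 ovaries a lineage left intervals past 1.5-fold for 9 members.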
